A study of Mus musculus with 2 samples.

Results

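Cluster 1 of the adult mouse oviduct epithelium held 183 of 406 adult cells (45.1%, exact binomial 95% interval 40.2 to 50.1), out of 669 cells in the whole series. Its members are the barcodes that carry number 1 in the cluster numbers deposited by the authors for the adult library, and each barcode was counted once. They are called multiciliated-like here because the 6 multiciliated genes Foxj1, Ccdc153, Tmem212, Sec14l3, Stoml3 and Kcnmb2 were all detected in them. The adult library came from C57BL/6 mice at estrus, the cycle stage around ovulation, and is set against no other condition. A second library, of C57BL/6 pups labelled P4 with 263 cells, entered only through the numbers given to the merged cells of both ages. In both, cells were freed with enzymes and sorted by flow with antibodies to Epcam, an epithelial surface protein, and CD45, a leukocyte protein, and the libraries were of the Chromium 3′ type. Neither the age of the adults, nor the number of animals pooled, nor the region of the oviduct is given in the labels used here.

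Multiciliated cells carry bundles of beating cilia on the side facing the oviduct lumen, and with the fluid made by their secretory neighbours they help to move the egg and embryo. The core of a motile cilium, the axoneme, is a ring of microtubule doublets around a central pair. Outer and inner dynein arms are its motors, radial spokes and the central pair regulate them, proteins inside the doublets stiffen them, and intraflagellar transport (IFT) carries parts along the cilium. FOXJ1, a forkhead transcription factor, and the RFX factors are known to switch on the genes of motile cilia, and RFX factors bind a DNA sequence called the X-box.

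Cluster 1 cells held 592420 UMI (unique molecular identifiers, 1 per captured mRNA copy), with a median of 3165 per cell (502 to 16207) and 1644 genes. The other 223 adult cells held 809221 UMI with a median of 3598. A level below is the sum of a gene's UMI over a group of cells per 10000 UMI of that group, with an exact Poisson 95% interval that covers counting error only. With 1 adult library there is no test between animals. The clusters were made from the expression of these same genes, so a difference between cluster 1 and other cells describes the cluster and tests nothing. A fold is the ratio of levels after adding 0.1 to each, a ratio has nothing added, and the measured genes of a comparison are those with a UMI in 10% or more of the cells of one of its sides.

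Foxj1 (chromosome 11, 116330704 to 116335399, minus strand, GRCm38) stood at 8.09 (7.38 to 8.84) in cluster 1, at 5.03 (3.86 to 6.45) in cluster 3, 1.43 in cluster 5, 0.175 in cluster 0 and 0.164, a single UMI, in cluster 4. Ccdc153, a coiled-coil protein gene (chromosome 9, 44240676 to 44247306), stood at 27.4 (26.1 to 28.8), 17.5 in cluster 3, 1.34 in cluster 5, 0.982 in cluster 4 and 0.331 in cluster 0. Clusters 1 and 3 were thus the high ones for both genes, and their intervals did not overlap with each other. Tmem212, a transmembrane protein gene (chromosome 3, 27866066 to 27896368), stood at 18.8 (17.7 to 19.9) in cluster 1 and 6.33 (5.01 to 7.90) in cluster 3, and at 1.25 or less in the other clusters.

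The other 3 marker genes had few or no UMI in cluster 3. Sec14l3, of a family of lipid-binding proteins (chromosome 11, 4064841 to 4077736), stood at 2.36 (1.99 to 2.79), with 140 UMI in 84 cells, and had no UMI in any other adult cell. It was at least 63.7-fold higher than in all other adult cells together, and at least 9.70-fold higher than in cluster 3, taking 3 counts in the whole group as the highest level that 0 UMI allows. Stoml3, a stomatin-like membrane protein gene (chromosome 3, 53488653 to 53508502), stood at 2.65 (2.25 to 3.10) and had 3 UMI in cluster 3, 1 in cluster 0 and none in clusters 4 and 5. Kcnmb2, which codes for a regulatory subunit of a calcium-activated potassium channel (chromosome 3, 31902507 to 32200180), stood at 2.67 (2.27 to 3.12), had 6 UMI in cluster 3 and none elsewhere. With 37 cells and 123177 UMI, the floor of 3 counts in cluster 3 lies at 0.244.

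Per cell, the 6 genes summed to a lowest, median and highest count of 0, 22 and 64 UMI in cluster 1, with 1 cell at 0. In cluster 3 the same values were 0, 5 and 38, in cluster 5 they were 0, 0 and 24, in cluster 4 they were 0, 0 and 3, and in cluster 0 they were 0, 0 and 2. Of the 183 cells 35 had a UMI of all 6 genes, 141 had at least 3 of them, 26 had 2, 15 had 1 and 1 had none. Since depth sets such shares, cells with at least 1000 UMI were thinned at random to 1000 UMI, which kept 141 cells of cluster 1 and left out 42. Then 90.8% (84.7 to 95) of cluster 1 cells had a Ccdc153 UMI, against 98.9% unthinned, and 0.893% (0.0226 to 4.87) of 112 cells of the secretory-rich cluster 0. The unthinned median depths of clusters 1 and 0 were 3165 and 4107.5 UMI. For Foxj1 the thinned share was 48.2% (39.7 to 56.8) in cluster 1, against 73.8% unthinned, and again 0.893% in cluster 0.

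**Figure D1:**
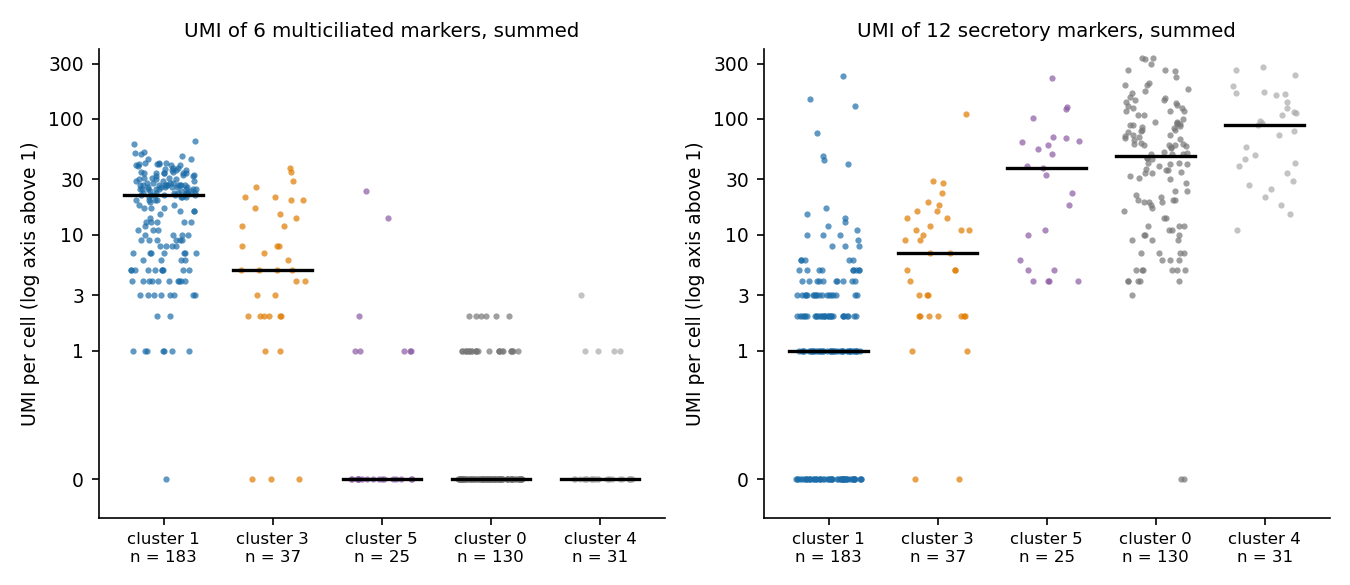
Summed UMI per cell (log axis above 1) of the 6 multiciliated genes on the left and of 12 secretory markers on the right, with a point for each cell of the 5 adult clusters and a bar at each median. The multiciliated median is 22 in cluster 1, 5 in cluster 3 and 0 in clusters 5, 0 and 4, and the secretory median is 1 in cluster 1, 7 in cluster 3, 38 in cluster 5, 48 in cluster 0 and 88 in cluster 4.

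The 8 leukocyte markers, among them Ptprc, the gene of CD45, summed to 27 UMI over the 183 cells, and Ptprc had none. Endothelial markers summed to 15 UMI, with at most 1 in a cell, fibroblast markers to 102 and smooth muscle markers to 270, of which 1 cell held 105. Markers of dividing cells summed to 38 UMI, and Mki67 had none. Epcam, the sorting antigen, was detected in 27.0% (19.8 to 35.1) of thinned cluster 1 cells and in 39.3% (30.2 to 49.0) of thinned cluster 0 cells. No doublet caller was run on these cells.

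Most measured genes of the axoneme and of IFT were at higher levels in cluster 1 than in the other adult cells. Across lists of outer and inner dynein arms, dynein assembly, radial spokes and central pair, proteins inside the doublets, and IFT with the BBSome (a coat that loads membrane proteins into cilia), 172 genes were in the table and 139 were measured. Of these 133 were at least 2-fold higher than in all other adult cells, 6 lay within 2-fold and none was lower, with a median log2 fold of 2.06. Of all 5116 measured genes 1025 (20%) were at least 2-fold higher and 551 (10.8%) at least 2-fold lower, with a median log2 fold of 0.21. These lists were compiled with earlier results of these data known, and the other adult cells include cluster 3, which carries cilium genes too. Against cluster 0 alone, 137 of 139 measured genes of these lists were higher, where 1265 of all 5494 measured genes (23.0%) were.

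All 14 measured outer arm genes were higher (median log2 fold 1.82). Dnah5, the gene of an outer arm heavy chain that turns ATP into force, stood at 5.57 (4.99 to 6.20) against 0.519 in the other cells, a ratio of 10.7 (7.77 to 15.2). Dnaic2, an intermediate chain gene, stood at 2.04 against 0.0618 (ratio 33.1, 13.8 to 103.6), and Dynlrb2, a light chain gene, was the most abundant of the 3 at 17.8 (16.7 to 18.9). All 19 measured inner arm genes were higher too (median 2.23), with the heavy chain gene Dnah12 at 5.06 against 0.309 (ratio 16.4, 10.9 to 25.7). The 12 measured genes of dynein assembly, which fold and pre-assemble the arms in the cytoplasm, were all higher (median 1.88).

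Of 31 measured radial spoke and central pair genes 30 were higher (median 2.32). The spoke head gene Rsph1 stood at 8.59 (7.86 to 9.37), with a ratio of 6.62 (5.36 to 8.25) over the rest, and the central pair gene Hydin at 1.11 (0.862 to 1.42), a ratio of 10.0 (4.97 to 22.9). Only Rsph3b lay within 2-fold, and it has a close copy, Rsph3a, with which it may share reads. Among proteins inside the doublets 28 of 29 measured genes were higher (median 2.34), among them Tekt4, a tektin filament gene, at 1.94 with a ratio of 12.1 (6.79 to 23.4). Tppp3, which binds microtubules and is high in ciliated cells, reached 29.1 (27.7 to 30.5), with a ratio of 5.78 (5.18 to 6.45). The IFT and BBSome genes had the smallest median of these 6 lists: 30 of 34 measured were higher (median 1.59), and Ift52, Kif3a, Ttc8 and Bbip1 were within 2-fold. Ift20, the gene of an IFT protein also found at the Golgi, had UMI in the secretory-rich cluster 0 too, at 4.66 (4.13 to 5.24) in cluster 1 and 1.19 (0.910 to 1.53) in cluster 0.

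**Figure D2:**
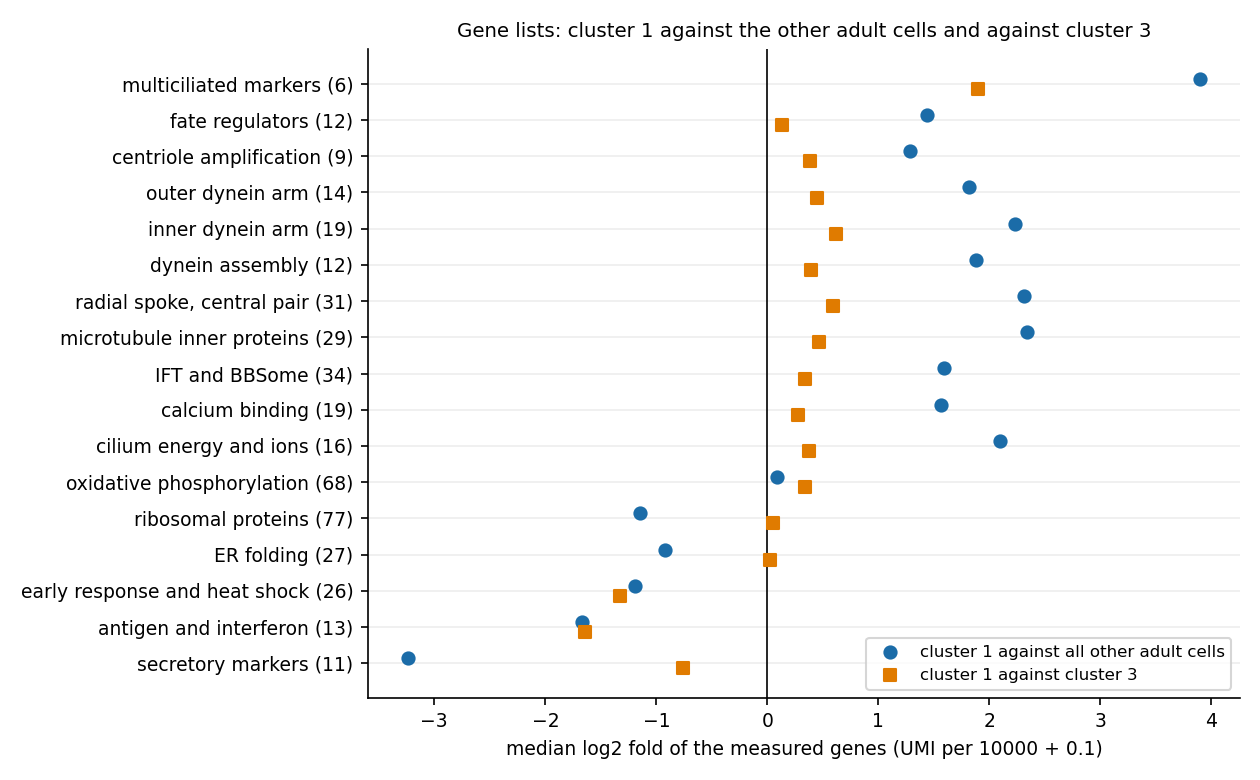
Median log2 fold of the measured genes of each list, with cluster 1 against all other adult cells as blue circles and against cluster 3 as orange squares, and the number of genes measured against all other adult cells in brackets. Medians of the axoneme and IFT lists lie at 1.59 to 2.34 against all other adult cells and at 0.34 to 0.62 against cluster 3, and that of the secretory markers at −3.24 against all other adult cells.

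Apart from Foxj1, regulators were expressed at low levels. Of 12 measured genes on a list for the multiciliated fate 9 were at least 2-fold higher and none lower (median log2 fold 1.44), beside 20% of all measured genes higher. These 9 take in Ank3 and the adenylate kinase gene Ak7, which is also counted under cilium energy supply below, so they are not regulators alone. After Foxj1 they included Rfx2 (28 UMI, level 0.473, ratio 4.25, interval 1.95 to 10.2), Rfx3 (34 UMI, 0.574, ratio 5.16, 2.42 to 12.2), the p53 family gene Trp73 (26 UMI, ratio 4.44, 1.95 to 11.3) and Myb (29 UMI, ratio 3.96, 1.88 to 9.11). Mcidas, which starts the multiciliated programme in precursors, had no UMI in the 183 cells, which allows a share of up to 1.64% of cells with a UMI at these depths, taking 3 cells as the limit. Its partner gene Gmnc had 5 UMI, Ccno, needed for centriole amplification, had 4, and Plk4, the kinase that starts new centrioles, had 3. Of 9 measured centriole genes 6 were higher, among them Ccdc78 (3.48, ratio 10.8, 7.18 to 16.96) and Cetn2, a centrin gene (6.89, ratio 3.74, 3.09 to 4.54).

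Of 15 measured tubulin and tubulin-modifying genes 10 were higher, beside 20% of all measured genes. Tuba1a stood at 17.4 (16.4 to 18.5) and Tubb4b, a beta tubulin of axonemes, at 11.9 (11.02 to 12.8), with ratios of 5.68 (4.94 to 6.55) and 4.06 (3.50 to 4.72), while Tubb5, another beta tubulin, was lower at 1.57 against 5.03 in cluster 0. Tubulin genes are close copies of each other, so reads may be split among them. Of 16 measured genes of cilium energy supply and ion handling 13 were higher (median log2 fold 2.10). They included Ckb, a creatine kinase gene (15.99, ratio 5.72, 4.95 to 6.65), and the adenylate kinase gene Ak7 (1.74, ratio 15.6, 7.92 to 35.2). The lone lower gene of that list, Gatm, codes for an enzyme that makes the precursor of creatine and stood at 0.439 against 5.59.

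The promoters of the genes that were higher in cluster 1 were read for the X-box, to which RFX factors bind, and for a core sequence bound by forkhead factors. RefSeq promoters (GRCm38.p6), from 250 bases before to 50 bases after a gene's start, were tabled for 27025 genes and searched on both strands. The half-site GTTGCCA, which can lie inside a full X-box, was in the promoters of 13.6% (11.3 to 16.2) of the 802 tabled genes at least 2-fold higher in cluster 1. It was in 5.02% of all tabled genes, in 5.88% of the 3946 measured ones and in 3.22% (1.72 to 5.44) of 404 lower genes. Among 107 higher axoneme and IFT genes the share was 21.5% (14.1 to 30.5), and among the 695 other higher genes 12.4% (10.0 to 15.1). Within only the 250 bases before the start, the shares were 12.1% for the axoneme and IFT genes, 10.3% for all higher genes and 4.87% for measured genes. The full X-box, with letters GTTNCCNNGGNAAC, was in few promoters. It was in 15 of 802 higher genes (1.87%, 1.05 to 3.07) and 31 of 3946 measured ones (0.786%, 0.534 to 1.11). Of 404 lower genes 2 had it (0.495%, 0.0600 to 1.78), and it was in 0.529% of all. Among the 107 higher axoneme and IFT genes 2 had it. Within only the 250 bases before the start, the shares were 1.25% of higher and 0.659% of measured genes.

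The forkhead core TGTTTAC was in 4.49% of higher, 3.57% of measured and 3.47% of lower genes, and in 4.05% of all tabled genes. The general element CCAAT was in 43.3%, 43.5%, 42.6% and 41.1% of the same groups. These are matches of letters and do not show that a factor is bound. The 10 stretches below show such matches: the X-box matches of the higher list genes Iqca and Ccdc151, the half-sites of the named gene AU040972 and of 6 axoneme and IFT genes, and the forkhead core of the marker Stoml3. Each stretch is on the gene's own strand, 5′ to 3′, with 20 bases on either side. Capitals mark the match, of which Cfap161 has 2 side by side, and a half-site on the other strand reads TGGCAAC.
Iqca, chr1:90153503-90153556, minus strand: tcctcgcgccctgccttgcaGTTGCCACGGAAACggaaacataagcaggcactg
Ccdc151, chr9:22002635-22002688, minus strand: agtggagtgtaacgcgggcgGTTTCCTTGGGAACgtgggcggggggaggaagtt
AU040972, chr11:79484216-79484262, minus strand: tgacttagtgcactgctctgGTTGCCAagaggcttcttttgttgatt
Cfap44, chr16:44394649-44394695, plus strand: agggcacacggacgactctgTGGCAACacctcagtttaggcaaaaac
Mns1, chr9:72438436-72438482, plus strand: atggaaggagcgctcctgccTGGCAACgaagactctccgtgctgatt
Traf3ip1, chr1:91494569-91494615, plus strand: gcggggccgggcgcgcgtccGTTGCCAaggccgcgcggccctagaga
Cfap161, chr7:83794880-83794926, minus strand: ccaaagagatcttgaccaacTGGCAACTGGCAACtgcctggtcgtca
Cfap74, chr4:155409183-155409229, plus strand: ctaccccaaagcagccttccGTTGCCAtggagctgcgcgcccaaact
Cfap20, chr8:95434938-95434984, minus strand: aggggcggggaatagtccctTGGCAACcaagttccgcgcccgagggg
Stoml3, chr3:53488595-53488641, plus strand: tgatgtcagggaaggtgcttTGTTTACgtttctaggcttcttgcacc

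All 10 genes were higher in cluster 1 by the choice made above. Iqca stood at 1.59 (1.28 to 1.94) against 0.210 in the other adult cells, Ccdc151, a docking gene of the outer arm, at 0.760 (0.554 to 1.02) against 0.136, and Traf3ip1, the gene of an IFT protein, at 1.45 (1.16 to 1.79) against 0.161. Cfap44 stood at 1.96 against 0.148, Mns1 at 1.81 against 0.198, Cfap161 at 1.54 against 0.272 and the central pair gene Cfap74 at 0.625 against 0.0741. Cfap20 had the highest level of these, at 5.59 (5.001 to 6.22) against 1.53. The matches lay between 21 bases (Ccdc151) and 211 bases (AU040972) before the start. No promoter tabled for the marker genes, Stoml3 included, held the half-site, and none was tabled for Foxj1.

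Genes of other kinds were at higher levels in cluster 1 too. Timp4, an inhibitor of matrix metalloproteases, stood at 12.3 (11.4 to 13.2) against 0.840 in the other cells (ratio 14.7, 11.4 to 19.1). Nnat, an imprinted gene of a small membrane protein, stood at 4.996 against 0.272 (ratio 18.4, 11.9 to 29.8), and overlaps Blcap on the opposite strand, which was at 0.591 against 0.210. Ghrh, the gene of growth hormone-releasing hormone, stood at 5.91 (5.31 to 6.56) against 0.544 (ratio 10.9, 7.93 to 15.2). The cadherin-related Cdhr3 stood at 2.79 (ratio 13.3, 8.03 to 23.3), and the checkpoint kinase gene Chek2 at 2.60 against 0.124. AU040972 stood at 4.19 (3.68 to 4.74) against 0.0989, with 1 UMI in cluster 0 and 7 in cluster 3. The class II histocompatibility gene H2-Ob had 52 UMI in cluster 1 and none elsewhere, so it was at least 23.7-fold higher, and Poln, a DNA polymerase gene, had 86 UMI against 2 (ratio 58.7, 15.8 to 492.8). Vpreb3 stood at 9.27 against 0.779. It lies 2385 bases from Gm867, a gene on the opposite strand that was also higher, at 11.8 against 1.09.

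Among the 12 most abundant genes other than mitochondrial and ribosomal protein genes, Malat1, a nuclear RNA, came first at 123.1, then Mt1, a metallothionein gene that binds zinc and copper, at 75.5 against 25.7. Fth1, the ferritin heavy chain that stores iron, stood at 62.1 against 35.6. The mitochondrial protein gene Chchd10 stood at 49.98 (48.2 to 51.8) against 7.45, was detected in all 183 cells, and overlaps Gm867 on the opposite strand. Of 19 measured calcium-binding genes 13 were higher and 3 lower (median log2 fold 1.56), beside 20% and 10.8% of all measured genes. S100a6 stood at 53.4 (51.5 to 55.3) against 12.8, while S100g was lower, at 0.338.

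Secretory genes were low but not absent. Of 11 measured secretory markers 10 were at least 2-fold lower and none higher (median log2 fold −3.24), beside the 10.8% of all measured genes. Ovgp1, the oviduct glycoprotein that coats the egg, stood at 6.16 (5.55 to 6.83) in cluster 1, 24.6 in cluster 3, 38.5 in cluster 5, 58.7 in cluster 0 and 282.1 in cluster 4. In cluster 1, 5 cells held 213 of its 365 UMI (58.4%), and without them its level was 2.82. After thinning, 18.4% (12.4 to 25.8) of cluster 1 cells and 87.5% (79.9 to 92.99) of cluster 0 cells had an Ovgp1 UMI, against 29.5% and 88.5% unthinned. Lcn2, an iron-scavenging secreted protein gene, stood at 0.878 against 12.8 in the other cells, and C3, a complement gene, at 0.236 against 3.68. Igfbp3 stood at 0.101 against 2.48. Of 18 measured secreted product genes 14 were lower and 3 within 2-fold. The remaining 1 was Igfbp2, whose protein binds insulin-like growth factors, at 1.30 against 0.0741 (ratio 17.5, 7.70 to 49.2).

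Genes of protein production were lower as well. Of 77 measured ribosomal protein genes 52 were at least 2-fold lower and none higher (median log2 fold −1.15), and their median share of a cell's UMI was 8.88% in cluster 1, 9.18% in cluster 3 and 24.2% in cluster 0. Over all measured genes 20% were at least 2-fold higher and 10.8% lower, and their median log2 fold, 0.21, is the level beside which the list medians are set. Of 27 measured genes of protein folding in the endoplasmic reticulum (ER) 13 were lower and none higher. Against cluster 3 alone, 23 of 25 measured ER genes lay within 2-fold and 2 were lower (median log2 fold 0.026). Of all 5483 genes measured in that comparison 9.06% were higher and 11.7% lower, so the ER genes were near the share of all genes. Calr and Hsp90b1, both ER chaperone genes, stood at 3.54 (3.08 to 4.06) and 4.74 (4.20 to 5.33) in cluster 1, and at 9.24 and 12.1 in cluster 0. The 68 measured nuclear genes of oxidative phosphorylation had 2 higher and none lower, and the 11 mitochondrial ones had none in either direction.

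Antigen presentation and interferon genes split. Of 13 measured 10 were lower (median log2 fold −1.67), beside 10.8% of all measured genes. B2m, the light chain of class I molecules, stood at 1.28 (1.01 to 1.61). The ratio of the other cells to cluster 1 was 4.16 (3.25 to 5.38) for B2m and 4.46 (3.42 to 5.89) for Ly6e, which stood at 1.10. Ifitm1, which codes for a membrane protein that blocks virus entry, went the other way at 53.0 (51.1 to 54.8) against 7.95 (ratio 6.66, 6.12 to 7.27). Its relative Ifitm3 stood at 43.1 against 37.8, within 2-fold. Of 26 measured genes known to respond to tissue dissociation 16 were lower, 7 within 2-fold and 3 higher (median −1.20), beside the same 10.8% lower and 20% higher. Fos stood at 12.1 (11.2 to 13.005) in cluster 1, 31.3 in cluster 0 and 34.3 in cluster 3, and the heat shock gene Hspb1 at 0.422 (0.273 to 0.623), 4.504 and 17.1. Hsp90aa1, a cytosolic chaperone gene, was one of the higher ones at 31.3 (29.9 to 32.8), with a ratio of 6.56 (5.88 to 7.34).

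The steroid hormone, Notch and Wnt lists had few measured genes, and their counts are to be read beside the 20% of all measured genes that were higher and the 10.8% that were lower. Of 13 measured steroid hormone genes 3 were higher, 3 lower and 7 within 2-fold. Of 14 measured regional factors none was higher, 3 were lower (Pax8, Hoxb6 and Sox17) and 11 were within 2-fold. Esr1, the estrogen receptor gene, stood at 0.658 (0.468 to 0.900) in cluster 1 and 1.66 (1.32 to 2.05) in cluster 0, with 8.51% (4.48 to 14.4) and 20.5% (13.5 to 29.2) of thinned cells holding a UMI. Areg, which codes for a ligand of the EGF receptor, was higher at 1.55 against 0.0741 (ratio 20.9, 9.26 to 58.6). Pgr, the progesterone receptor gene, had too few UMI for a statement (ratio 0.373, 0.0667 to 1.41). Wt1, a factor of the distal oviduct, stood at 3.87 (3.38 to 4.40) in cluster 1, 3.84 (3.32 to 4.42) in cluster 0 and 1.38 (0.804 to 2.21) in cluster 3. Pax8, a factor of secretory cells, had 4 UMI in cluster 1 and 35 in cluster 0, and no Pax2 difference was detectable (ratio 1.02, 0.150 to 6.06). Of 8 measured Notch genes 2 were higher, 2 lower and 4 within 2-fold: Lfng, which sugars Notch receptors, was higher (35 UMI, ratio 6.83, 2.99 to 18.2), with Dtx1, and Notch2 and Hes1 were lower. Of 10 measured Wnt genes 4 were within 2-fold, while Wnt7b (25 UMI, ratio 4.27, 1.87 to 10.9), Wnt11 and Ctnnb1 were higher and Dkk3, Rspo1 and Tcf7l2 lower.

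Cluster 3 was the closest group by the marker genes, and against its 37 cells 497 of 5483 measured genes (9.06%) reached a 2-fold higher level in cluster 1 and 641 (11.7%) a 2-fold lower one. Of the 142 measured axoneme and IFT genes 22 were higher, 1 lower (Tekt5, with 4 against 7 UMI) and 119 within 2-fold, with a median log2 fold of 0.51, against −0.02 over all genes. Cilium genes were thus at similar or somewhat higher levels in cluster 1. Dynlrb2 had a ratio of 1.33 (1.13 to 1.57), Rsph1 of 1.26 (0.999 to 1.61), Tppp3 of 1.11 (0.989 to 1.26), Foxj1 of 1.61 (1.23 to 2.13) and Dnah12 of 2.71 (1.77 to 4.34). None of the 10 measured centriole genes differed 2-fold, nor did Tuba1a (ratio 1.12, 0.961 to 1.32) or Tubb4b (0.932, 0.783 to 1.12). Both clusters had a like share of cells under 1600 UMI, 32.2% and 29.7%, a limit set after the data were seen.

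Genes that were higher in cluster 1 than in cluster 3 included Timp4 (ratio 4.60, 3.25 to 6.73), Ghrh (4.28, 2.64 to 7.43), Nnat (5.13, 2.89 to 10.0), AU040972 (7.37, 3.52 to 18.5) and Ifitm1 (2.61, 2.29 to 2.98). Igfbp5 had 93 UMI against 1, a ratio of 19.3 (3.39 to 771.9), and Bcas1 and H2-Ob had no UMI in cluster 3, for folds of at least 3.33 and 3.60. The regional list had 4 genes higher (Wt1, Tshz2, Gata6 and Sox9) and 5 lower of 15 measured, beside 9.06% and 11.7% of all measured genes. Wfdc18, a secreted protein gene, was also higher, at 6.68 against 0.974, but 5 cells held 89.1% of its UMI, and without them it stood at 0.815.

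Many genes of the dissociation list and of the antigen and interferon list were lower in cluster 1 than in cluster 3. Dissociation genes had 18 of 29 measured lower and none higher (median log2 fold −1.33), beside 11.7% of all measured genes lower. Fos stood at 12.1 against 34.3 (ratio of cluster 3 to cluster 1 2.84, 2.51 to 3.21), Atf3, a stress-induced factor, at 2.31 against 19.2 (8.32, 6.71 to 10.3) and Junb had a ratio of 3.69 (3.15 to 4.33). Antigen and interferon genes had 8 of 15 lower and 1 higher, with Isg15, an interferon-induced ubiquitin-like gene, at 0.152 against 2.44 (16.03, 7.42 to 38.4). Of 8 epithelial genes 4 were lower, among them the keratin gene Krt18 at 6.95 (6.30 to 7.66) against 21.1 (18.6 to 23.8). Efhd1 had no UMI in cluster 1 and 31 in cluster 3, at least 49.7-fold lower in cluster 1, while S100g stood at 0.338 against 9.17. Sox17, a factor gene of the reproductive tract, stood at 0.709 against 2.76 (3.89, 2.40 to 6.27).

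**Figure D3:**
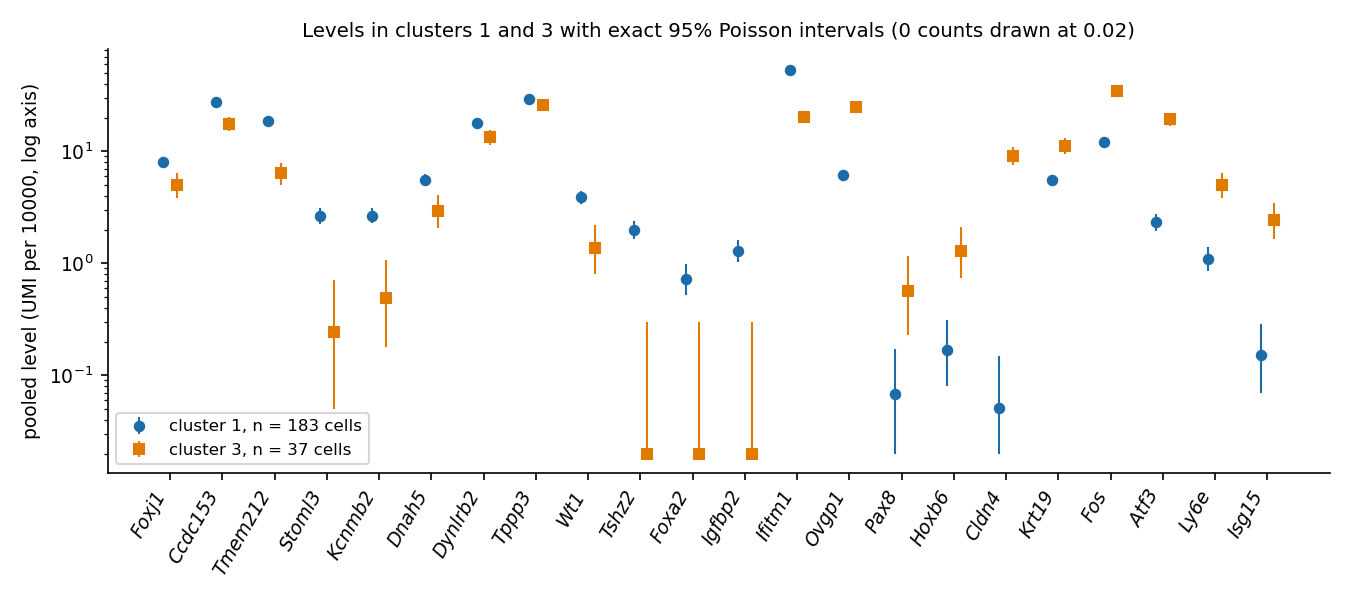
Pooled levels (UMI per 10000, log axis) of 22 named genes in cluster 1 (blue, 183 cells) and cluster 3 (orange squares, 37 cells), with exact Poisson 95% intervals and 0 counts drawn at 0.02. Tppp3 lies at 29.1 in cluster 1 with overlapping intervals, Ifitm1 is higher in cluster 1 at 53.0, and Atf3, at 2.31 against 19.2, is higher in cluster 3.

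Against cluster 0, the largest secretory-rich cluster with 130 cells, 1265 of 5494 measured genes (23.0%) were higher in cluster 1 and 697 (12.7%) lower. High folds were those of Dynlrb2 (69.8-fold), Tmem212 (68.5-fold), Ccdc153 (63.8-fold) and Arhgdig (53.8-fold), of which the last overlaps Rgs11 on the opposite strand. Prr29 had 399 UMI against 1 (ratio 345.4, 61.6 to 13677), and Caly 551 against 3 (159.0, 54.1 to 773.4). At the other end stood Dcpp3 (19.8-fold lower, with close copies among the Dcpp genes), Igfbp3 (15.9-fold), Gatm (14.8-fold), the selenium transport gene Sepp1 (14.7-fold) and Msln (14.3-fold).

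Inside cluster 1 the cells fell into a shallow and a deep group by their UMI. No cell had between 1540 and 1934 UMI, and 59 cells lay below this gap and 124 above it. Malat1 had a UMI in 21 of the 59 shallow cells (level 16.2, 12.9 to 20.1), 3 of which held 25, 23 and 10 of the 82 UMI, and in 121 of the 124 deep ones (133.0, 130.0 to 136.2). Without these 3 cells, of which the one with 10 had 1540 UMI in all, the Malat1 level of the shallow cells was 5.15. The median share of mitochondrial UMI was 0.968% in the shallow and 5.13% in the deep cells. A gene's length is here the median of its coding transcripts. Shares by length were taken of UMI in genes of known length, without mitochondrial and ribosomal protein genes. Genes under 1000 bases made up a median of 50.6% of these UMI in the shallow and 39.5% in the deep cells. Those of at least 4000 bases made up 3.55% and 7.24%. Across 861 genes the log2 fold of shallow over deep cells had a Spearman rho of −0.48 with transcript length. Genes are not independent, and this is a description of these cells.

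The summed level of the 6 markers was nearly the same in both, 62.1 in shallow and 62.0 in deep cells, yet single markers moved apart. Kcnmb2 stood at 0.593 (0.122 to 1.73) in shallow and 2.86 (2.43 to 3.35) in deep cells, and Stoml3 at 0.791 (0.215 to 2.02) and 2.82 (2.39 to 3.31). Tmem212 stood at 12.7 (9.74 to 16.2) and 19.3 (18.2 to 20.5), and Foxj1 at 4.94 (3.20 to 7.29) and 8.38 (7.63 to 9.19). Ccdc153, with a short transcript, stood at 40.7 (35.3 to 46.7) and 26.2 (24.8 to 27.6), while Sec14l3 was level at 2.37 and 2.36. Outside the markers, Dnah12 stood at 0.395 (2 UMI) in shallow and 5.50 (4.89 to 6.16) in deep cells. Dnah5 stood at 1.38 (0.556 to 2.85) and 5.96 (5.33 to 6.65), and Mt1 at 140.5 and 69.4. Among the axoneme lists, summed levels in shallow cells were 1.32 times those in deep cells for the outer arm, 1.38 times for proteins inside the doublets, 1.12 times for radial spokes and central pair and 1.18 times for IFT. Inner arm genes summed to 0.564 times and mitochondrial oxidative phosphorylation genes to 0.395 times their deep level in shallow cells, and nuclear oxidative phosphorylation genes to 1.48 times. Divided at the same limit, cluster 0 had Malat1 in 14 of 38 shallow and 87 of 92 deep cells. Cluster 0 had cells of 1815 and 1839 UMI, inside the empty range of cluster 1, and none between 1531 and 1815 UMI. Of the shallow cluster 1 cells 21 of 59 had at least 3 of the 6 markers, and of the deep ones 120 of 124.

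**Figure D4:**
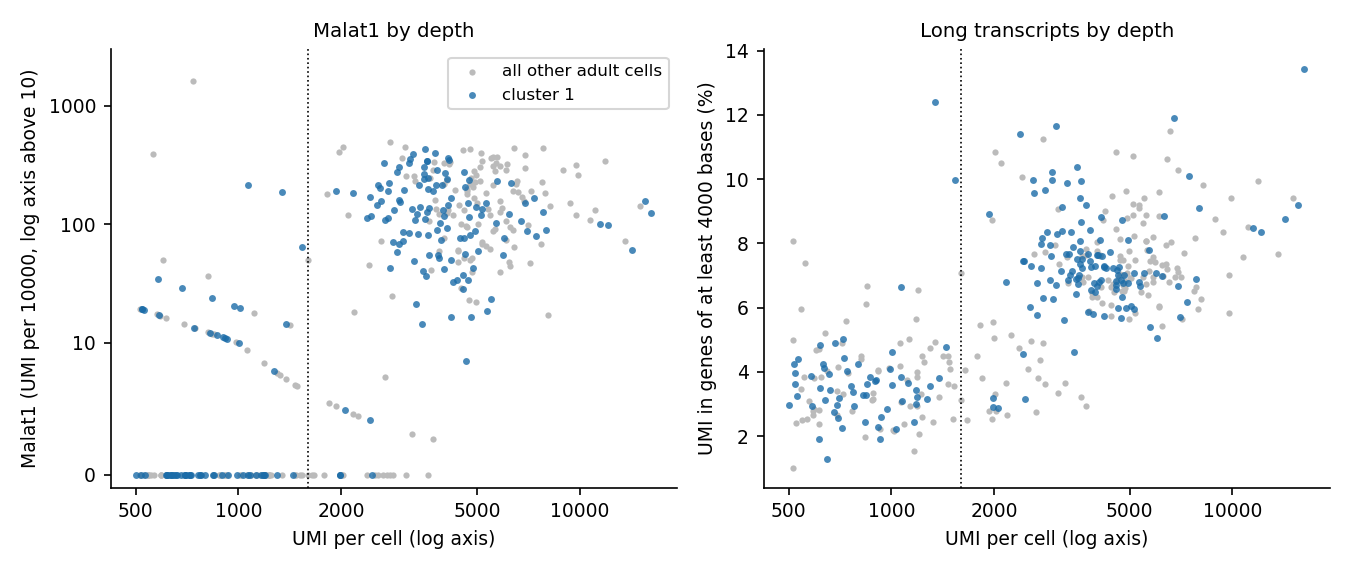
Malat1 (UMI per 10000, log axis above 10) on the left and the percentage of UMI in genes of at least 4000 bases on the right, against UMI per cell (log axis), with a point for each adult cell, blue for cluster 1 and grey for all others, and a dotted line at 1600 UMI. Cluster 1 cells left of the line have Malat1 in 21 of 59 and those right of it in 121 of 124, and the medians of the long genes are 3.55% and 7.24%. The percentage is of UMI in genes of known length, without mitochondrial and ribosomal protein genes.

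The spread of each gene between cells was compared at equal depth, where counting alone gives a variance equal to the mean. Over 141 cells thinned to 1000 UMI, the variance over mean of 4279 genes had a median of 0.979, and 42 genes (0.982%) were over 2. The markers lay between 1.04 for Foxj1 and 1.503 for Ccdc153, and only Ccdc153 was above the 95th percentile of all these genes, 1.37. The most variable genes were Malat1 (8.51), Actb, the gene of cytoskeletal actin (7.74), Wfdc18 (5.99), Mt1 (5.06), BC048546 (4.44), Nnat (4.41) and Spp1 (4.36). Behind these came mt-Atp6 (4.06), Ovgp1 (3.76), Mt2 (3.71), Fos (3.66), Ifitm1 (3.55) and Ghrh (2.62). Of these 20 most variable genes 17 were also chosen with the second column of each barcode, 16 with another random thinning and 14 without the 5% of cells with the most UMI.

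Nnat and Ghrh were concentrated in some cells. At 2000 UMI per cell, over 121 cells, Nnat had a lowest, median and highest count of 0, 0 and 24 with 88 cells at 0. Over all 183 cells at their full depth, 10 cells held 58.4% of its 296 UMI. Ghrh had 0, 0 and 17 with 73 cells at 0, and the 2 genes had a correlation of 0.29 on a log scale over these cells. Ifitm1 was present in nearly every cell, with 0, 10 and 34 UMI and 2 cells at 0. Fos had 0, 1 and 19 UMI with 44 cells at 0, and the summed dissociation genes had 2, 21 and 116.

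Fos rose and fell with other immediate early genes from cell to cell (r = 0.74 with Jun) and was opposed to Ifitm1 (r = −0.37), while Ifitm1 and Ifitm3 went together (r = 0.48). Mt1 and Mt2 had r = 0.63, and Tuba1a and Tubb4b 0.58. Ccdc153 and Tmem212 had r = 0.30, and Foxj1 and Tmem212 −0.04. All 121 cells come from 1 library, with equal depth after thinning, and such values are descriptions.

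In a principal component analysis of the thinned cells, where counting error was not separated out, the first component held 2.33% of the variance over 1647 genes. Malat1, mt-Atp6, mt-Co1, mt-Cytb, mt-Nd4, mt-Co3, Ckb and mt-Co2 stood at one end, and Actb, Tmsb4x, Wfdc18, Rps28, Rpl41, Rps29, Rpl23a and Rplp0 at the other. Its score had r = −0.83 with the ribosomal protein sum, 0.58 with the mitochondrial sum and 0.19 with each cell's total UMI before thinning. With 121 cells thinned to 2000 UMI the first component was a different one, with r = 0.57 with total UMI, 0.73 with the ribosomal protein sum, −0.62 with the multiciliated markers and −0.05 with the mitochondrial sum. The third component (1.80%) had Fos, Junb, Cyr61 and Jun at one end and Ifitm1 at the other, with r = 0.81 to the summed dissociation genes, and at 2000 UMI the second component had r = 0.86 with that sum.

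A few cells held much of the secretory signal. The 16 cells with at least 10 UMI of secretory markers held 73.7% of all such UMI in cluster 1, and the median cell had 1. Wfdc18 had 396 UMI, of which 353 were in 5 cells with 29 to 123 each, and the next cell had 8. These cells had between 7333 and 16207 UMI, and 4 of them had 21 to 45 UMI of the multiciliated markers, the fifth 1. A pair of the 5 had 115 and 29 UMI of Wfdc18 with 4 and 1 of Ovgp1. In the secretory-rich clusters 0 and 4 together, Wfdc18 had 0.917 UMI per UMI of Ovgp1 (0.880 to 0.956), in the whole of cluster 1 1.08 (0.939 to 1.25), and in cluster 1 without the 5 cells 0.208 (0.146 to 0.290). The 5 cells were left out for their Wfdc18, so its fall in that ratio follows from the choice. For Clu, another secreted protein gene, the same 3 ratios were 0.192 (0.178 to 0.206), 0.186 (0.142 to 0.242) and 0.203 (0.142 to 0.284). They fell for Lcn2, at 0.204 (0.190 to 0.219), 0.142 (0.104 to 0.191) and 0.0580 (0.0295 to 0.103). Dcpp3 fell too, at 0.211 (0.197 to 0.226), 0.0795 (0.0525 to 0.116) and 0.0386 (0.0165 to 0.0776). For Ltf, Agr2 and Sepp1 the intervals of the 3 ratios overlapped. The part of free RNA and of doublets in these counts was not tested. Without the 16 cells 1050 genes were at least 2-fold higher and 666 lower than in all other adult cells.

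A set of 3 deep cells, of which 1 was also among the 5 Wfdc18 cells, held 46, 79 and 160 UMI of Spp1, the gene of osteopontin, together 77.2% of its 369 UMI in cluster 1, and the next cell had 4. The same 3 cells held 82.5% of the UMI of Akr1cl, an aldo-keto reductase gene, with 25, 29 and 50 each. Rgcc stood at 12.2 (8.81 to 16.5) in them against 0.315 in the other deep cells, Tsc22d1 at 23.0 (18.2 to 28.6) against 2.27 and Actb at 197.5 (183.0 to 213.0) against 36.4. They were singled out after their values were seen. The cell with 79 Spp1 UMI had 15527 UMI in all and 1 UMI of the multiciliated markers, none of it Foxj1, so these genes do not bear out the label multiciliated for it. The other pair had 21 and 22 such UMI.

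**Figure D5:**
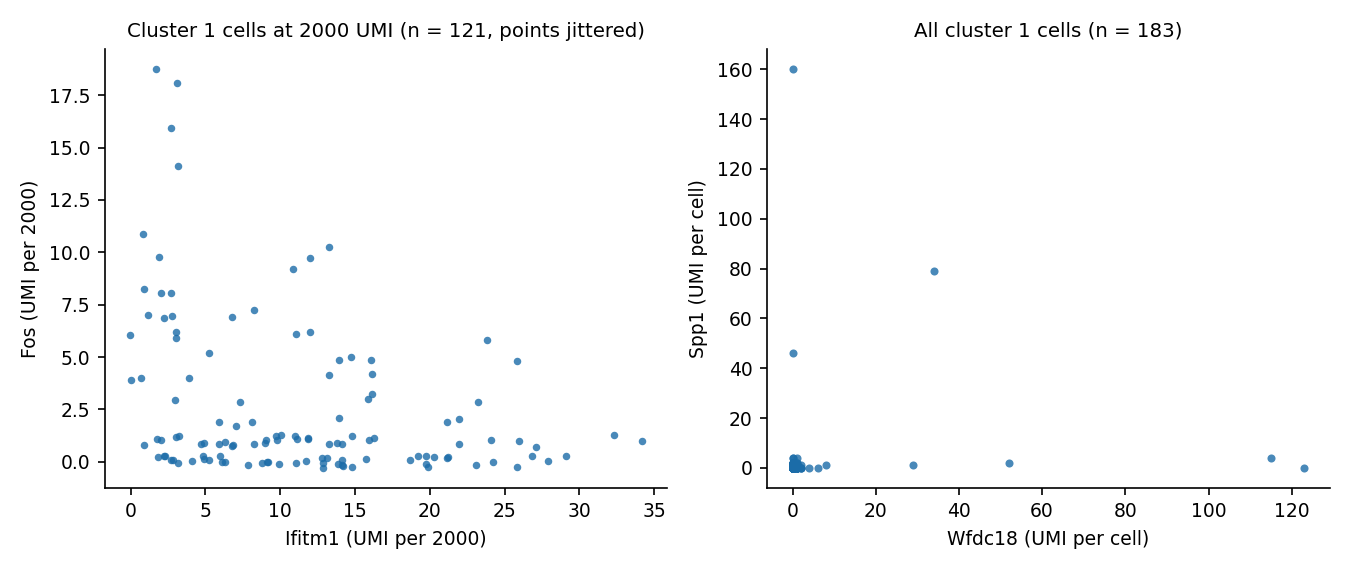
Cells of cluster 1, each a point. The left panel plots Fos against Ifitm1 (UMI per cell after thinning to 2000, 121 cells, points jittered), with r = −0.37, and the right panel plots Spp1 against Wfdc18 (UMI per cell, 183 cells), where 3 cells have at least 46 UMI of Spp1, 5 cells have at least 29 of Wfdc18, and 1 cell is in both sets.

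The authors also numbered the merged cells of both ages. Of the 182 cluster 1 cells with such a number 178 (97.8%, 94.5 to 99.4) were in merged cluster 0, beside 17 cells of adult cluster 3, 1 of cluster 4, 1 of cluster 5 and 14 of the P4 library. The cells of cluster 3 were divided, with 17 of 36 (47.2%, 30.4 to 64.5) in merged cluster 0 and 19 in merged cluster 6. Of the 4 cluster 1 cells elsewhere, 2 lay in merged cluster 1, which held 225 P4 cells and no other adult cell. One of this pair had 160 UMI of Spp1 and the other 115 of Wfdc18. The cell with 1 marker UMI was in merged cluster 2, 1 more in merged cluster 6, and the third Spp1 cell had no merged number. Without these 5 cells, an alternative chosen after seeing the data, 1071 genes were at least 2-fold higher and 617 lower than in all other adult cells, and 1002 and 540 of them were the same genes as with all cells.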

How the data were processed

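The authors deposited tables of counts (UMI per gene and cell) for the adult library, the P4 library and both merged, with no normalization, and tables of cluster numbers per cell. Seurat 2.3.4, Cell Ranger and the build mm10 are named without roles, per the submitters' processing notes. Cell filters, strand handling and the Cell Ranger version are not given in the sources used here. The adult table has 807 columns under 2 prefixes and 406 distinct barcodes. The first column of a barcode was used, and 1 cluster 1 cell had only the second. Paired columns of cluster 1 had a median mean squared difference of 0.141 relative to their sum, while columns of different barcodes had at least 1.03, and 2 barcodes had another cluster number under the second prefix. Of the 406 adult barcodes 0 were also in the P4 library.

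Counts were summed with Python 3.11.15, numpy 2.4.6, scipy 1.17.1 and pandas 2.3.3. Intervals are 95% exact Poisson, exact conditional (ratios) and Clopper-Pearson (shares). No p-values were computed, since cells are not replicates. Genes with 0 counts on one side were bounded against 3 counts over the group, and those with 1 to 3 are given as ratios. Named genes are the 24 higher and 12 lower with the largest folds against the rest, 8 each way against clusters 3 and 0 (pooled count at least 20, without ribosomal, mitochondrial, Gm and Rik genes), the 20 most variable, 12 most abundant (without ribosomal and mitochondrial genes), list members and fixed genes; those that show a point are printed. The members, lists and rules were chosen with earlier results of these data known. Positions are from GENCODE M21 (GRCm38), where 74 of 75 named genes had 1 position. The steps were tested on simulated data, and no doublet caller was run.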

Additional observations from a re-analysis of the deposited data

How the results depend on the processing

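Pseudocount, filter and depth set how many genes pass 2-fold. Against all other adult cells, 482 genes were higher and 256 lower with a pseudocount of 0.5, 497 and 262 (76 of them axoneme and IFT genes) with a UMI in at least 25% of cells, 540 and 317 (68 axoneme and IFT genes) at 1000 UMI per cell, and 937 were lower with no filter. Against cluster 0 the counts were 670 and 301 with the pseudocount of 0.5, 584 and 322 (76) with the 25% filter and 599 and 365 (68) at 1000 UMI. The filter and thinning leave fewer genes measured (2082 and 1950 against the rest). Against cluster 3 they were 129 and 197 (4 axoneme and IFT genes) with the pseudocount of 0.5, 145 and 191 (12) with the 25% filter, and 1331 and 1027 with no filter. At 1000 UMI per cell they were 338 and 563 of 2473 measured genes against cluster 3. Only 120 and 251 of these were among the main calls of 497 and 641 genes, so most of those calls were not recovered at equal depth. With no filter 56.4% of the calls against cluster 3 were higher, against 43.7%, and the median log2 fold was 0.19 rather than −0.02. A mean over cells gave 42 axoneme and IFT genes against cluster 3. Within 250 bases before the start the half-site was in 10.3% of higher genes and 12.1% of higher axoneme and IFT genes. The cause was not tested for the mean over cells.

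Of 1078 values of single genes under alternatives 929 moved by less than their interval, 149 by more, and 0 reversed. No gene called in both settings changed direction, except 1 when cluster 3 was left out of the other cells. With only cells of at least 2000 UMI, chosen after seeing the data, 1201 genes were higher and 703 lower than in the rest. No paired analysis was possible because each age has 1 library. The depth of cluster 3 limits a level of 0 there to a bound at 0.244, and shares of cells depend on depth.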
